A study of Homo sapiens with 8 samples.

Results

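Matrix metalloproteinase genes (MMP), ADAMTS genes and the tissue inhibitors of metalloproteinases (TIMP) were examined in U2OS cells after silencing of CDK9. U2OS is a human osteosarcoma cell line, and CDK9 is a kinase that lets RNA polymerase II pass from pausing into productive elongation. Members are the genes whose symbol is MMP or ADAMTS followed by a number, or TIMP1 to TIMP4, among probe sets annotated with a single symbol. They numbered 43 of the 18417 genes tested: 22 MMP, 17 ADAMTS and 4 TIMP genes. A gene with several probe sets is represented by the one with the highest mean. The probe set shared by MMP23A and MMP23B carries both symbols and was left out.

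One group of 4 cultures received siRNA against CDK9 and the other group of 4 a non-targeting siRNA. Both groups shared the same cell line, transfection reagent, siRNA concentration (10 nM), growth medium with 7.5% serum and time of harvest (72 h). Total RNA was measured on Affymetrix human gene arrays, 1 array per culture. In bulk RNA of a culture, fewer cells with a transcript and less of it per cell cannot be told apart.

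MMPs are zinc endopeptidases, mostly made as inactive precursors, that cleave collagens, proteoglycans and other matrix proteins. ADAMTS proteases are secreted relatives with thrombospondin repeats, and include the proteoglycan-cleaving enzymes and the enzymes that trim procollagens. TIMPs bind and block the active site of MMPs, and TIMP3 also blocks several ADAM and ADAMTS enzymes. In bone and in osteosarcoma these enzymes take part in turnover of the collagen-rich matrix.

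The signals of replicate 1 in each group, called array set 1 here, had a lower median than those of replicates 2 to 4, called array set 2. Single genes such as MMP3 went the other way. The median of all probe sets was 5.80 and 5.85 in set 1 and 6.99 to 7.04 in set 2, so the array set was a block in the fit. CDK9 itself read 9.8, 10.86, 10.89 and 10.86 in control replicates 1 to 4 and 8.0, 9.03, 9.09 and 9.04 after silencing, apart in both sets. Its mRNA was left at 28.4% of the control signal (log2 difference -1.82 ± 0.05 SE, n = 4 per group, limma adjusted p = 2.17e-07). Of the fixed osteoblast and mesenchymal markers, 6 of 8 measured were not dim, while all 6 measured markers of blood and endothelial cells and 3 of 4 of epithelium were dim. Dim means a mean over all arrays in the lowest 30% of genes, below 6.14 on the log2 scale. Of the 8 osteoblast and mesenchymal markers 3 fell, where 7.47% of all genes fell. These were RUNX2 by 0.60 (limma adjusted p = 0.000344), COL1A1 by 0.51 and VIM by 0.19 (limma adjusted p = 0.0323). SP7 (0.13), SPARC (-0.23), COL1A2 (-0.23) and the dim ALPL (0.07) and IBSP (-0.03) did not pass. VIM did not pass under the replicate block (adjusted p = 0.0808) or without any 1 array of set 2 (adjusted p = 0.0526 to 0.102). The summed log2 signal of the 8 osteoblast and mesenchymal markers did not overlap between groups. It was 67.7 to 68.1 with CDK9 siRNA against 69.4 to 69.7 in controls in set 2, and 56.7 against 58.0 in set 1. Of all single genes, 19.5% were lower without overlap in set 2, but a sum of 8 genes is not a like measure to a single gene. The sum also includes the falls of RUNX2 and COL1A1 given above, so it is not a separate result. The epithelial sum overlapped in set 2, at 26.5 to 27.0 against 25.9 to 26.7. Of the 4 epithelial markers, EPCAM, a dim gene, was higher by 0.32 (limma adjusted p = 0.0366), while CDH1 (-0.06), KRT5 (0.01) and KRT14 (0.07) did not pass. EPCAM did not pass under the replicate block (adjusted p = 0.0841), nor when control replicate 3 or 4 or any CDK9 siRNA array of set 2 was left out (adjusted p = 0.0540 to 0.105). The part of these markers in the other results was not tested.

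MMP genes moved in 1 direction only among those that passed the test. Of 22, 7 fell, 0 rose and 15 did not pass (limma, adjusted p under 0.05 over all genes). Over all genes tested, 14.2% passed, of which 7.47% of all genes fell and 6.73% rose. Among the 12 MMP genes that were not dim, 5 fell, against 9.86% lower and 8.66% higher over all genes that were not dim. Of the 18 dim members, 3 passed (MMP7, MMP12 and ADAMTS5), against 4.11% of all dim genes. The median log2 difference of the 22 MMP genes was -0.09, and over all genes it was 0.00. Among the 17 ADAMTS genes 3 rose and 1 fell. Of the 4 TIMP genes, 2 fell and 0 rose. When the replicate number replaced the array set as block, 5 MMP genes and 1 TIMP gene fell, and the ADAMTS counts were again 3 higher and 1 lower. In that fit 4.75% of all genes fell and 4.41% rose. Without any block limma passed 0 genes, and 0.277% had an unadjusted p under 0.05.

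**Figure D1:**
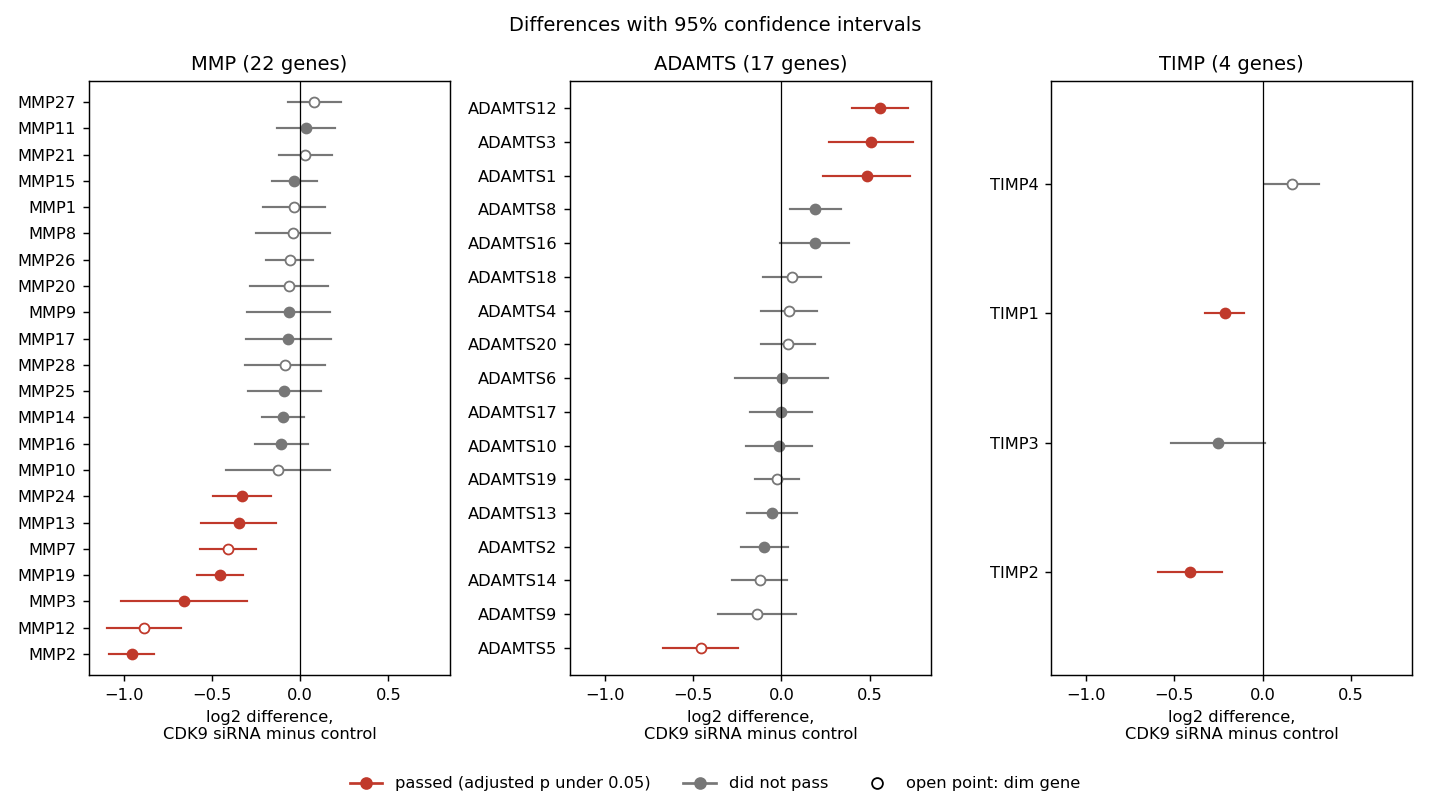
Log2 difference (CDK9 siRNA minus control siRNA, points) with its 95% confidence interval (lines) for each of the 43 genes, by family. Red genes passed the test and open points are dim genes: 7 MMP genes lie to the left of 0, ADAMTS genes lie on both sides, and TIMP1 and TIMP2 lie to the left.

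The gelatinases cleave denatured collagen and basement membrane collagen. MMP2, gelatinase A, had the largest fall of all members. It read 8.02, 10.0, 9.97 and 9.91 in control replicates 1 to 4 and 7.11, 9.01, 8.88 and 9.07 in the CDK9 siRNA group (log2 signal, probe set 7995681). Every array of the CDK9 siRNA group lay about 1 log2 unit below the control of its own array set, and the groups did not overlap within either set. MMP2 differed by -0.96 ± 0.06 on the log2 scale (SE, n = 4 per group, limma adjusted p = 4.45e-05), which leaves 51.6% of the control signal. An exact two-sided permutation test within array sets gave p = 0.05, the smallest that its 40 arrangements can give. Groups that do not overlap in either set always give this value, so it adds no support. Over all 70 arrangements, ignoring the array sets, the exact p was 0.229. The test was planned for CDK9, which gave 0.05 within sets and 0.0286 over all arrangements. MMP2, with the largest fall, was the only member tested. MMP9, gelatinase B, differed by -0.07 ± 0.10 (SE) and did not pass (limma adjusted p = 0.747).

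The stromelysins MMP3 and MMP10 degrade proteoglycans and laminin and activate other MMP precursors. MMP3, stromelysin 1, read 8.71, 7.91, 8.05 and 7.70 in control replicates 1 to 4 and 8.74, 6.83, 7.03 and 7.13 with CDK9 siRNA. The pair of array set 1 was level, with a difference of 0.04, whereas all 3 arrays of set 2 lay below all 3 controls. The log2 difference over both sets was -0.66 ± 0.16 (SE, n = 4 per group, limma adjusted p = 0.0240). In set 2 alone it was -0.89 (limma adjusted p = 0.00217), and the difference between the sets did not pass its own test (limma adjusted p = 0.0728). Under the replicate block the call was lost (adjusted p = 0.0587). Leaving out CDK9 siRNA replicate 2 or 3 ended it too (adjusted p = 0.0635 and 0.0722), as did leaving out control replicate 2, 3 or 4 (adjusted p = 0.0674, 0.0682 and 0.0517). MMP11, stromelysin 3, differed by 0.03, and MMP10, stromelysin 2, a dim gene, by -0.12. Neither passed.

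Collagenases make the first cut in fibrillar collagen. MMP13, collagenase 3, which is made by hypertrophic chondrocytes and osteoblasts, read 5.11, 8.25, 8.03 and 7.96 in the controls and 5.10, 7.63, 7.55 and 7.67 with CDK9 siRNA. In set 1 both arrays were low and equal, and in set 2 the CDK9 siRNA arrays were all below the controls. MMP13 fell by 0.35 on the log2 scale (SE 0.10, n = 4 per group, limma adjusted p = 0.0392), with 0.00 in set 1 and -0.47 in set 2. Under the replicate block its adjusted p was 0.0755. The call was lost without any 1 of the 6 arrays of set 2 (adjusted p = 0.0725 to 0.111). MMP1, the interstitial collagenase, and MMP8, the neutrophil collagenase, were dim, differed by -0.04 each and did not pass.

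MMP12, the macrophage metalloelastase, read 4.32, 6.79, 6.71 and 6.66 in the controls and 3.84, 5.70, 5.65 and 5.74 with CDK9 siRNA. It counts as dim over all arrays, but in set 2 the controls stood about 1 log2 unit above the CDK9 siRNA arrays with a narrow spread in each group. Its log2 difference was -0.89 ± 0.09 (SE, n = 4 per group, limma adjusted p = 0.000519), with -0.48 in set 1 and -1.02 in set 2. MMP19, which cleaves basement membrane components, read 6.39, 7.77, 7.97 and 7.79 in the controls and 5.93, 7.35, 7.40 and 7.42 with CDK9 siRNA. Its difference was nearly the same in both sets, -0.47 and -0.45. MMP19 fell 1.37-fold (limma adjusted p = 0.00125).

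MMP7, matrilysin, is a small MMP without the hemopexin domain of most others. It read 4.01, 5.80, 5.74 and 5.90 in the controls and 3.71, 5.42, 5.47 and 5.22 with CDK9 siRNA. All readings are in the dim range, and the groups did not overlap within either set. MMP7 differed by -0.41 ± 0.07 (SE, n = 4 per group, limma adjusted p = 0.00566). MMP26, matrilysin 2, a dim gene, differed by -0.06 and did not pass.

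Membrane-type MMPs act at the cell surface, and all 6 measured were above the dim range. MMP24 (MT5-MMP) was the one that passed. It read 6.85, 8.67, 8.61 and 8.82 in the controls and 6.30, 8.39, 8.46 and 8.48 with CDK9 siRNA, lower in each set. The fall was 1.26-fold (log2 -0.33 ± 0.07 SE, n = 4 per group, limma adjusted p = 0.0162). Without control replicate 4 it did not pass (adjusted p = 0.0545), and without that array the count of falling MMP genes was 4. MMP14 (MT1-MMP), which activates the precursor of MMP2 with the help of TIMP2, differed by -0.10 with a 95% interval of -0.22 to 0.02. MMP15 (-0.03), MMP25 (-0.09) and MMP16 (-0.11) did not pass, and a second MMP16 probe set gave 0.11, the opposite sign. MMP17 (MT4-MMP) differed by 0.42 in set 1 and -0.23 in set 2, and this difference between sets passed its test (limma adjusted p = 0.0405). It was called lower in set 2 alone (limma adjusted p = 0.0312) and not over both sets (-0.07). The test for a difference between sets passed for 2.14% of all genes and for 3 members: MMP17, ADAMTS6 and TIMP3. The other 8 MMP genes that did not pass were dim and differed by -0.12 to 0.08.

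**Figure D2:**
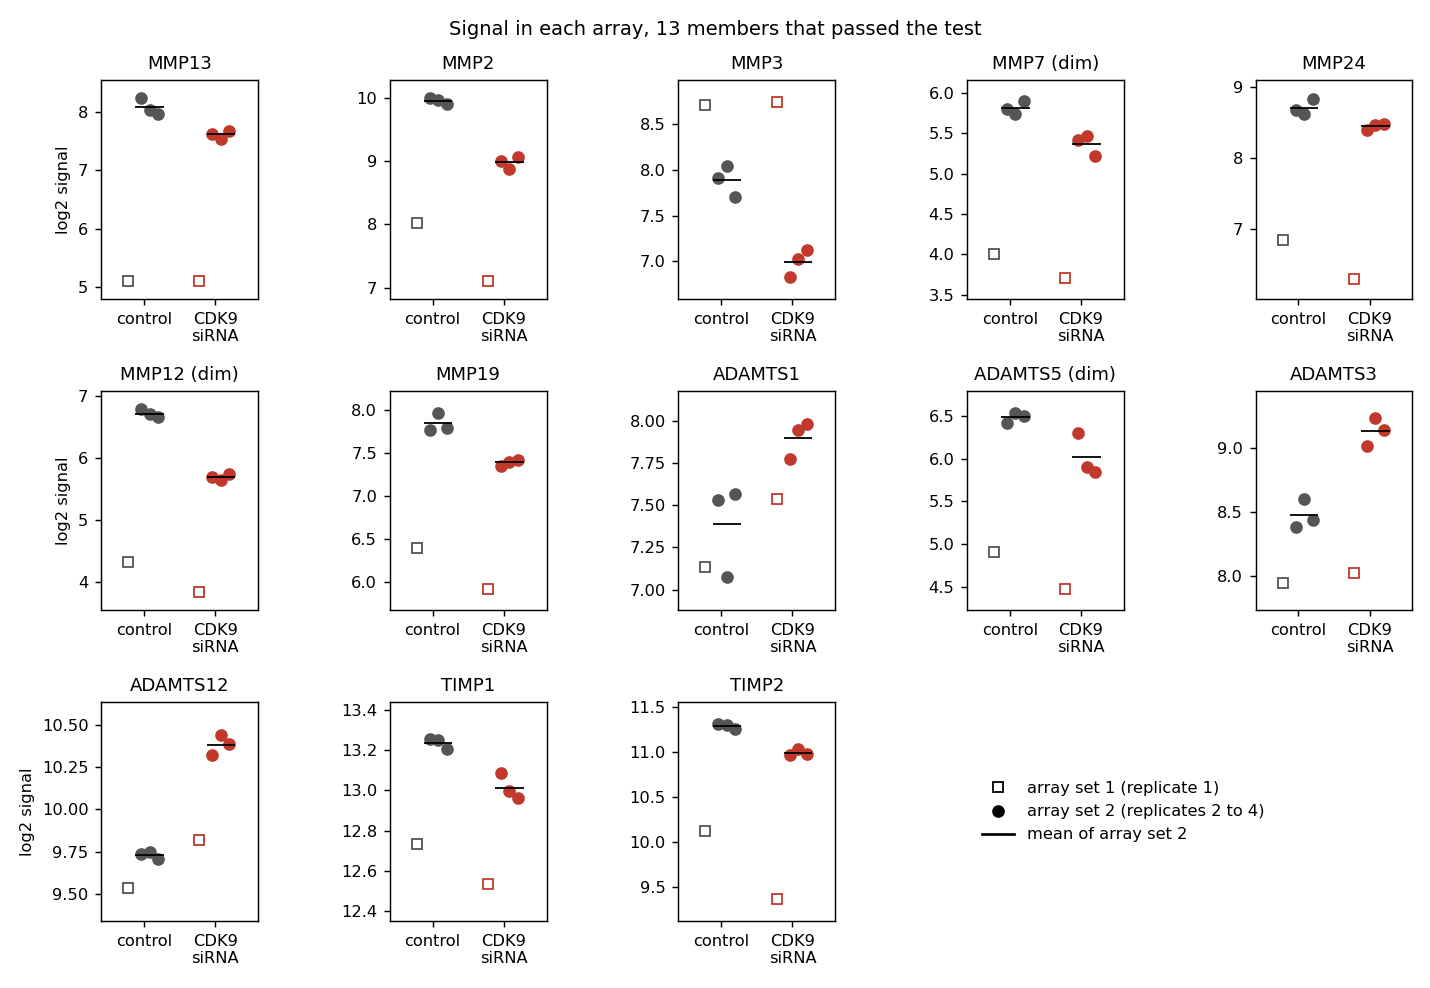
Log2 signal (vertical axes, scaled per gene) in each array for the 13 genes that passed, controls in grey and CDK9 siRNA in red. Open squares are array set 1, filled circles array set 2 with their mean as a line; MMP2 and MMP12 drop by about 1 unit in set 2, while the squares of MMP3 and MMP13 are level.

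The ADAMTS rises were in 3 enzymes of different substrate groups. ADAMTS12, which cleaves cartilage oligomeric matrix protein, read 9.53, 9.74, 9.75 and 9.71 in the controls and 9.82, 10.32, 10.44 and 10.38 with CDK9 siRNA. It rose 1.47-fold (log2 0.56 ± 0.07 SE, n = 4 per group, limma adjusted p = 0.00130), and its call held in all alternatives with a block or with set 2 alone. ADAMTS3, a procollagen N-propeptidase, read 7.95, 8.39, 8.60 and 8.44 in the controls and 8.03, 9.02, 9.23 and 9.13 with CDK9 siRNA. The arrays of set 2 were clearly apart, with a difference of 0.65, while the pair of set 1 differed by 0.08. Over both sets ADAMTS3 rose 1.42-fold (limma adjusted p = 0.0130). The other N-propeptidases did not pass: ADAMTS2 differed by -0.10, and the dim ADAMTS14 by -0.12. ADAMTS14 was called lower in set 2 alone (-0.21, limma adjusted p = 0.0363).

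Among the proteoglycan-cleaving enzymes, ADAMTS1 rose and ADAMTS5 fell. ADAMTS1 cleaves versican and aggrecan. It read 7.14, 7.53, 7.07 and 7.57 in the controls and 7.54, 7.77, 7.95 and 7.98 with CDK9 siRNA. Control replicate 3 was the lowest of set 2, and no control of that set reached the CDK9 siRNA arrays. The rise was 1.40-fold (log2 0.48 ± 0.11 SE, n = 4 per group, limma adjusted p = 0.0181), and it did not pass without CDK9 siRNA replicate 3 (adjusted p = 0.0585). ADAMTS5, aggrecanase 2, is dim and read 4.91, 6.42, 6.54 and 6.50 in the controls and 4.48, 6.30, 5.91 and 5.84 with CDK9 siRNA. It fell 1.37-fold (log2 -0.46 ± 0.10 SE, n = 4 per group, limma adjusted p = 0.0127), by like amounts in set 1 (-0.43) and set 2 (-0.47). The 95% intervals lay on opposite sides of 0, at 0.24 to 0.73 for ADAMTS1 and -0.67 to -0.24 for ADAMTS5. These genes are next to each other among the protein-coding genes of chromosome 21. On the far side of ADAMTS1 from ADAMTS5, CYYR1 fell by 0.43 (limma adjusted p = 0.0142).

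The remaining ADAMTS genes did not pass. ADAMTS8 differed by 0.19 (limma adjusted p = 0.0837) and ADAMTS16 by 0.19 (adjusted p = 0.192). ADAMTS10 (-0.01) and ADAMTS6 (0.00), which are associated with fibrillin, ADAMTS13, the protease of von Willebrand factor (-0.05), and ADAMTS17 (0.00) had small differences. ADAMTS6 read 6.09, 7.23, 7.20 and 7.09 in the controls and 5.54, 7.33, 7.41 and 7.34 with CDK9 siRNA. It was lower in set 1 (-0.55) and higher in set 2 (0.19), and the sets differed (limma adjusted p = 0.0280). Besides ADAMTS14, 5 dim ADAMTS genes that did not pass differed by -0.14 to 0.06.

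TIMP1 and TIMP2 fell by smaller amounts than MMP2. TIMP2, which both inhibits MMP2 and helps its activation, read 10.13, 11.31, 11.30 and 11.25 in the controls and 9.37, 10.96, 11.04 and 10.98 with CDK9 siRNA. The groups did not overlap within either set, and the set 1 difference (-0.76) was larger than that of set 2 (-0.30), a gap that did not pass its test (limma adjusted p = 0.0540). TIMP2 fell 1.33-fold (log2 -0.41 ± 0.08 SE, n = 4 per group, limma adjusted p = 0.0101). Over both sets, its 95% interval of -0.59 to -0.23 does not reach that of MMP2, -1.08 to -0.83. The falls were closer in set 1, at -0.76 for TIMP2 and -0.91 for MMP2, than in set 2, at -0.30 and -0.97. TIMP1 read 12.73, 13.25, 13.25 and 13.20 in the controls and 12.54, 13.08, 12.99 and 12.96 with CDK9 siRNA, apart in both sets. Its difference was -0.22 ± 0.05 (SE, n = 4 per group, limma adjusted p = 0.0198), with -0.20 in set 1 and -0.22 in set 2. Under the replicate block TIMP1 had an adjusted p of 0.0514. TIMP1 also failed to pass when CDK9 siRNA replicate 3 or 4 was left out (adjusted p = 0.0594 and 0.0538) or control replicate 2 or 3 (adjusted p = 0.0620 and 0.0716).

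TIMP3, which binds to the matrix, read 7.66, 9.07, 9.06 and 9.05 in the controls and 6.85, 9.0, 9.06 and 8.93 with CDK9 siRNA. The pair of set 1 differed by -0.82 and the arrays of set 2 by -0.06, and the sets differed (limma adjusted p = 0.0237). Over both sets TIMP3 did not pass (-0.25, adjusted p = 0.201), and a second TIMP3 probe set gave -0.37. TIMP4 was dim, read 4.86, 6.07, 5.96 and 5.89 in the controls and 5.13, 6.23, 6.04 and 6.04 with CDK9 siRNA, and did not pass (0.17, adjusted p = 0.144).

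**Figure D3:**
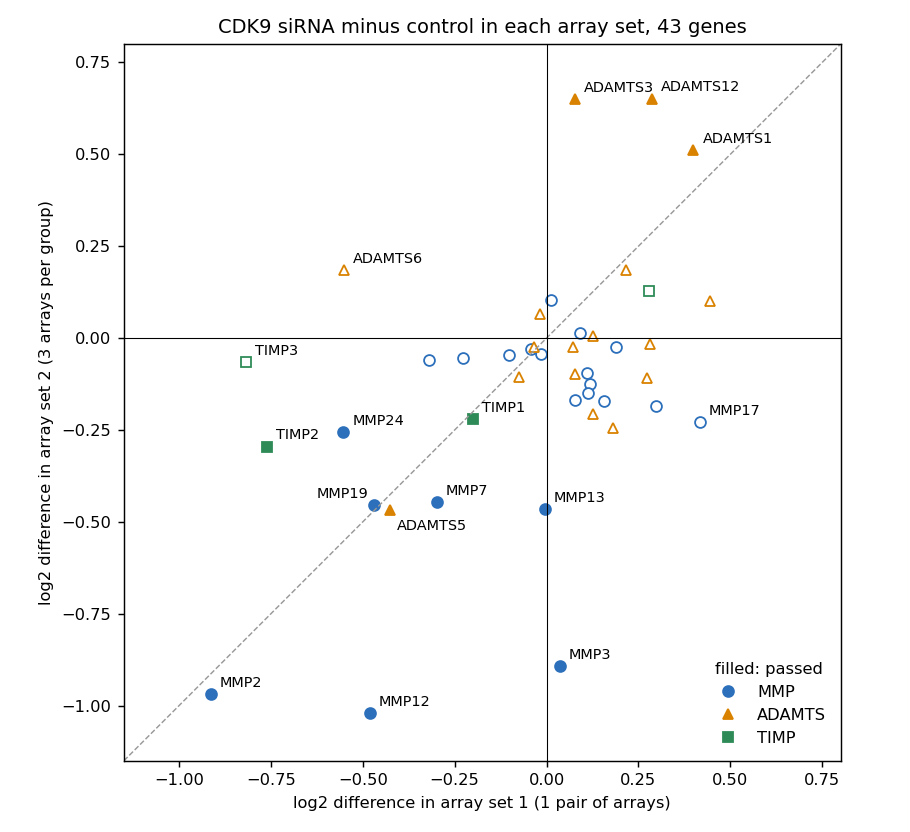
Log2 difference (CDK9 siRNA minus control siRNA) of each of the 43 genes in array set 1 (horizontal axis, 1 pair) and array set 2 (vertical axis, 3 arrays per group), with the line of equal values dashed. MMP2 (-0.91 and -0.97) and MMP19 lie near the line, MMP3 and MMP13 lie at about 0 on the horizontal axis, and TIMP3, ADAMTS6 and MMP17 are away from it.

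In set 2 alone, 8 MMP genes, 2 ADAMTS genes and 2 TIMP genes were lower and 3 ADAMTS genes higher, where 8.57% of all genes were lower and 9.52% higher. The set 2 groups did not overlap for 13 members that were lower and 5 that were higher, against 19.5% and 18.7% of all genes. Of the 13 called members, all but MMP3 kept their sign in set 1, its 1 pair of arrays, although MMP13 had a difference there that rounds to 0.00. The median difference of the MMP genes was 0.00 in set 1 and -0.16 in set 2.

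Levels of some MMP genes themselves differed between the array sets, with a single control array in set 1. In the control arrays the median gene read 1.07 lower in set 1 than in set 2. Relative to this shift, MMP3 was 1.89 higher in set 1, rank 6 from the top of 18417 genes, where the SD over all genes was 0.424. MMP13 stood at -1.91, rank 35 from the bottom, and MMP12 at -1.33, rank 138 from the bottom. Other MMP genes lay within that SD, such as MMP9 (-0.17), MMP10 (0.05) and MMP11 (0.15). Averaged over both groups, MMP3 had the highest such difference of all genes, 2.34. No test of these level differences was run, and the sources used here do not say what else sets these arrays apart.

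**Figure D4:**
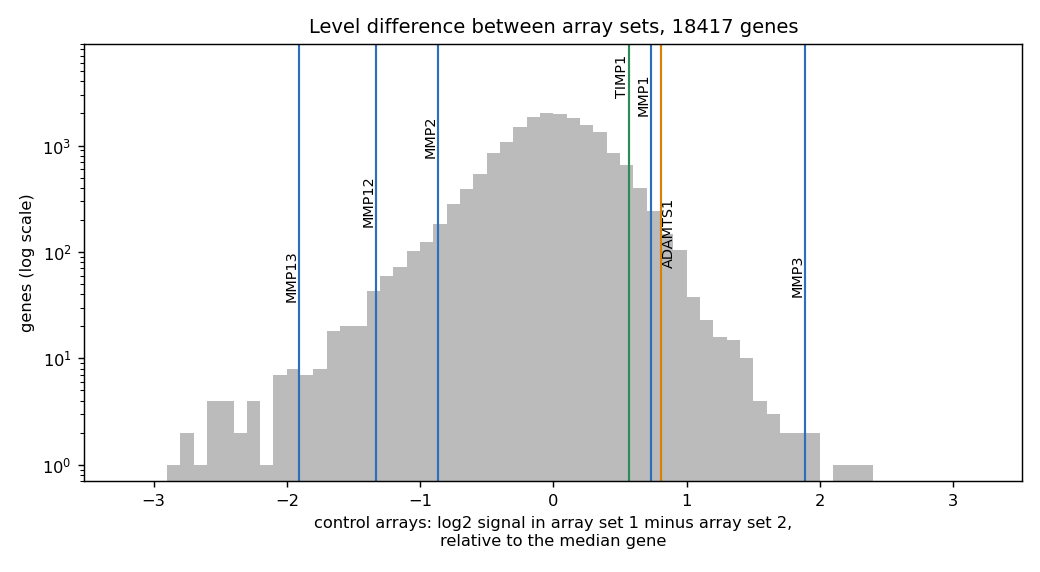
Histogram of 18417 genes by the control-array signal in set 1 minus set 2, relative to the median gene (log2, horizontal axis) with gene counts on a log axis. Lines mark 7 members, by family colour (MMP blue, ADAMTS orange, TIMP green): MMP3 lies at 1.89 in the right tail, and MMP13 (-1.91) and MMP12 (-1.33) in the left tail.

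A run of 9 MMP genes lies on chromosome 11 with no other protein-coding gene between them, in the order MMP7, MMP20, MMP27, MMP8, MMP10, MMP1, MMP3, MMP12 and MMP13. This order comes from RefSeq on GRCh38.p14, which was used for names and neighbours only. The last 3 of the run, MMP3, MMP12 and MMP13, and the first, MMP7, fell, where 7.47% of all genes fell. In set 1 the differences of MMP3 and MMP13 were 0.04 and -0.005. Neither passed under the replicate block (adjusted p = 0.0587 and 0.0755). The 5 genes between MMP7 and MMP3 were all dim and did not pass. Outside the run, DCUN1D5 next to MMP13 differed by -0.12 and did not pass (limma adjusted p = 0.183), while TMEM123 next to MMP7 rose by 0.22 (limma adjusted p = 0.0379). TMEM123 did not pass under the replicate block (adjusted p = 0.0844) or without any 1 array of set 2 (adjusted p = 0.0722 to 0.109).

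**Figure D5:**
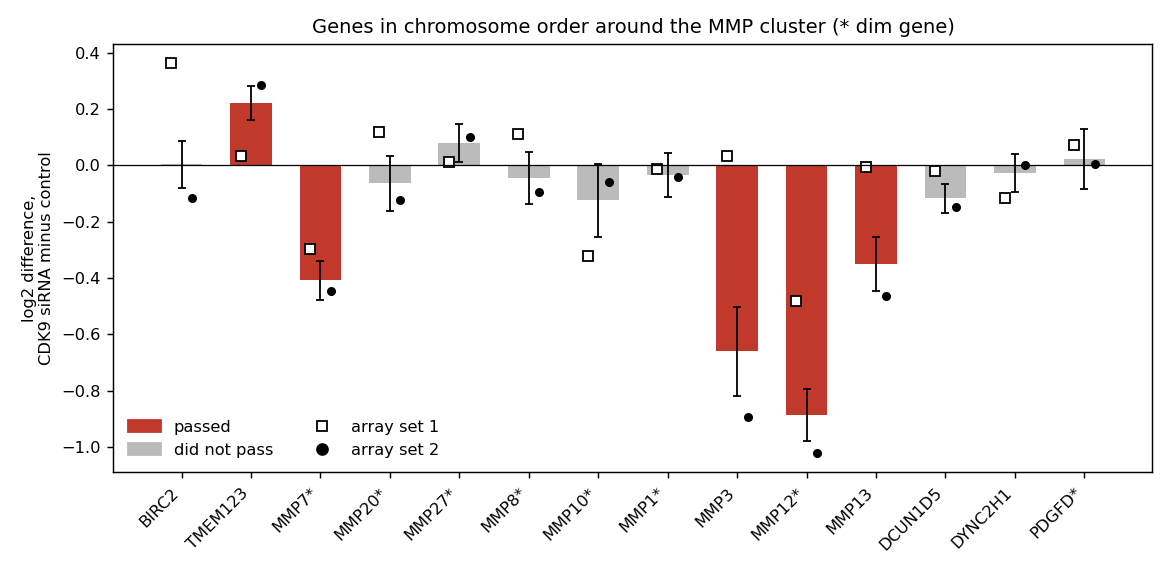
Log2 difference (bars, with SE) of the genes in their order along chromosome 11 around the MMP run, with array set 1 as open squares and set 2 as filled circles. Red bars passed: MMP7, MMP3, MMP12 and MMP13 point down and TMEM123 points up; an asterisk marks a dim gene.

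Promoter sequences are shown for the 5 called members that the RefSeq promoter table (GRCh38.p14) holds, since these genes fell or rose in the same cells. The table matched 25 of the 43 members. Each line gives the 150 bases before the gene's start, 5′ to 3′ on the gene's strand. Capitals mark exact matches only, to the AP-1 site TGACTCA (either strand) and the TATA box TATAAA. FOS and JUN proteins bind the AP-1 site, which is a classical element of several MMP promoters.
MMP7 (fell): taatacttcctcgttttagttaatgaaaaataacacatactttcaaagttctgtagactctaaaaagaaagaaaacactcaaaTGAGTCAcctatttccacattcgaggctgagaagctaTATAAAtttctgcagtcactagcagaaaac
MMP24 (fell): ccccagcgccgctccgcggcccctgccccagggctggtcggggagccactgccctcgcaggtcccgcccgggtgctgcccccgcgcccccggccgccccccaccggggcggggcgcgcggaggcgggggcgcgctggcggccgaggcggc
TIMP1 (fell): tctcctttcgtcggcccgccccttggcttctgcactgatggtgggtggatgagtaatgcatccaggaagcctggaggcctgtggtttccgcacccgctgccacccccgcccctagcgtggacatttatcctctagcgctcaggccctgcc
ADAMTS3 (rose): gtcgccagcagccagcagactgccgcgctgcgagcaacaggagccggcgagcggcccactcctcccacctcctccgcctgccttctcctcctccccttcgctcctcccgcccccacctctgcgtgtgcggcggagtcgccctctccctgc
ADAMTS12 (rose): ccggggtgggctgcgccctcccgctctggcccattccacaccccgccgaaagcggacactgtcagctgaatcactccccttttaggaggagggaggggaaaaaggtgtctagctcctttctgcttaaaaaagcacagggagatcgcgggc

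They lie at chr11:102530748-102530897 (MMP7, minus strand), chr20:35226540-35226689 (MMP24, plus), chrX:47582286-47582435 (TIMP1, plus), chr4:72569222-72569371 (ADAMTS3, minus) and chr5:33891991-33892140 (ADAMTS12, minus). In the 250 bases before the start, MMP7 held TGAGTCA, the reverse strand of TGACTCA, from 67 bases before the start, and TATAAA from 30 bases before it. The other 4 held neither exact string. Near matches to the AP-1 site, such as tgagtaa in TIMP1 and tgaatca in ADAMTS12, were not counted, so MMP7 is not shown to differ in AP-1 sites. TATAAA is not particular to MMP7. Among members that did not pass, it began 31 bases before the start in MMP10 and 28 in MMP26, and lay farther off in MMP8, MMP20 and MMP21. Of the 35116 promoters in the table, 4.20% held TGACTCA on either strand and 6.80% held TATAAA in that window. The same window held 3 CG dinucleotides in MMP7, 12 in TIMP1, 21 in ADAMTS12, 25 in MMP24 and 30 in ADAMTS3, with a median of 11 over all promoters. Above that median lie 2 genes that fell and 2 that rose. A match is a description of letters, not of binding.

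Some genes that activate, inhibit or clear these proteases rose and others fell. Of 26 on the list, 23 were measured, 2 rose (8.70%) and 7 fell (30.4%), against 6.73% and 7.47% of all genes. The share that rose lay near that of all genes. A2M, alpha-2-macroglobulin, a trap for proteases of many classes, read 8.16, 10.27, 10.34 and 10.17 in the controls and 7.30, 9.44, 8.95 and 9.23 with CDK9 siRNA. It was lower in every array than the controls of its set and was left at 49.7% of the control signal (log2 -1.01 ± 0.10 SE, n = 4 per group, limma adjusted p = 0.000417). RECK, a membrane-anchored inhibitor of MMPs, read 7.02, 7.86, 7.93 and 7.93 in the controls and 7.48, 8.46, 8.80 and 8.42 with CDK9 siRNA. It rose 1.52-fold (limma adjusted p = 0.00263). PLAU, urokinase, which turns plasminogen into plasmin, rose by 0.59 (limma adjusted p = 0.000846), while its receptor gene PLAUR fell by 0.21 (limma adjusted p = 0.0292, and 0.0797 under the replicate block). PLAUR did not pass when any CDK9 siRNA array of set 2 was left out, or control replicate 2 or 3 (adjusted p = 0.0514 to 0.0946).

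SPOCK1, the proteoglycan testican-1, fell by 0.69, and LRP1, an endocytic receptor that clears proteases and their complexes with inhibitors, fell by 0.48. The lysosomal proteases CTSB and CTSL fell by 0.31 and 0.27. FURIN, which removes the propeptide of membrane-type MMPs and ADAMTS enzymes, fell by 0.24 (limma adjusted p = 0.0173, and 0.0513 and 0.0673 without control replicate 2 or 3). BSG, an inducer of MMPs, differed by -0.08 and did not pass.

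Of 18 ADAM and ADAMTS-like genes, 4 rose (22.2%) and 1 fell (5.56%), against 6.73% and 7.47% of all genes. The share that fell lay near that of all genes. ADAM12 rose 1.48-fold, with 1.1 in set 1 and 0.39 in set 2 on the log2 scale, and the sets differed (limma adjusted p = 0.0250). ADAM9 rose by 0.45, and the sheddase ADAM17 by 0.24 (limma adjusted p = 0.0145, 0.0515 under the replicate block and 0.0536 without control replicate 3). ADAM23 and ADAM22 lack protease activity. ADAM23 rose by 0.29 (limma adjusted p = 0.0287, 0.0592 under the replicate block, and 0.0593 to 0.0874 when CDK9 siRNA replicate 3, its replicate 4 or any control of set 2 was left out), and ADAM22 fell by 0.44. The 5 ADAMTS-like genes, which lack the protease domain, did not pass over both sets, with differences of -0.12 (ADAMTSL1) to 0.06 (ADAMTSL4). ADAMTSL3 was lower in set 1 (-0.79) and higher in set 2 (0.30, limma adjusted p = 0.0155 in set 2 alone), and the sets differed (limma adjusted p = 0.0157). The sets also differed for ADAM19 (limma adjusted p = 0.0400), which did not pass over both (-0.04).

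Of 24 measured matrix substrates of these enzymes, 8 fell (33.3%) and 1 rose (4.17%). Over all genes tested 7.47% fell and 6.73% rose, and among those not dim 9.86% and 8.66%. The share that rose lay below both of these. The fibrillar collagen genes COL5A2 and COL3A1 fell most, with log2 differences of -1.30 (limma adjusted p = 2.01e-05) and -1.27 (limma adjusted p = 7.85e-05). FN1, fibronectin, fell by 0.81 and COL1A1 by 0.51, whereas the fibrillar collagen genes COL1A2 (-0.23) and COL2A1 (0.00) did not pass. LUM, the collagen-binding proteoglycan lumican, fell by 0.44 and FBN1, fibrillin-1, by 0.37. NID1, the basement membrane protein nidogen-1, rose by 0.39 (limma adjusted p = 0.00663). COL4A2 (-0.17) and the fibrillar collagen gene COL5A1 (-0.21) passed narrowly, and under the replicate block their adjusted p was 0.106 and 0.0984. COL4A2 did not pass without any 1 array of set 2 (adjusted p = 0.0729 to 0.155), nor COL5A1 without CDK9 siRNA replicate 2 or 3 or any control of set 2 (adjusted p = 0.109 to 0.143). The proteoglycans cut by ADAMTS1 and ADAMTS5 did not pass. VCAN, versican, differed by -0.28 and ACAN, aggrecan, by -0.05, both of them dim.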

How the data were processed

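The submitters' processing notes name Expression Console 1.1 from Affymetrix, RMA, limma and the genome build hg19, without their roles. The deposited table holds log2 values of 33297 probe sets on 8 arrays (range 2.01 to 14.7). RMA values are relative within arrays normalized together, so a change common to all transcripts would not appear. Which arrays were normalized together, and whether the values were centred, stays unknown. Array numbers in the sample descriptions part replicate 1 of both groups from the rest. No scanner files were used.

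Probe sets with a single symbol in the platform annotation (19460) were reduced to the highest-mean one per gene, 18417 genes. All 43 members matched RefSeq (GRCh38.p14) symbols, and 0 symbols changed. The comparison was a limma fit (version 3.58.1 under R 4.3.3; lmFit, eBayes, array set as a block, two-sided, Benjamini-Hochberg over all genes, threshold 0.05). The same fit was run on simulated data with known changes, equal in both array sets. Such data follow the model of the fit, so they cannot show how it does where the sets differ. Differences are CDK9 siRNA minus control siRNA on the log2 scale. Plots used Python 3.11.15 and matplotlib 3.10.9. The number of arrays limits the precision, and levels of different probe sets are not compared.

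The replicates are described as biological by the series' design text. No 2 arrays held identical values. Deviations from group means correlated at 0.494 to 0.822 within same-numbered pairs, which includes the difference between array sets. Within replicates 2 to 4 alone the correlations were 0.108, -0.01 and 0.170. Members and lists were chosen with earlier results of these data known. Named with values were all members that passed, those called only with the replicate number as a block or in array set 2 alone, all TIMP genes, other members not dim, and genes of the fixed lists that passed. Genes named outside this rule were chosen after their values were seen. Alternatives were no block, the replicate number as a block, array set 2 alone, median centring, renewed quantile normalization, dim genes left out, the mean of all probe sets, eBayes with trend and robust settings, and leaving out each array.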

Additional observations from a re-analysis of the deposited data

Results flagged for a closer look

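In 6 of 88 sets of 4 arrays (each member and CDK9 in each group, after the array set difference was removed) 1 array lay far from the other 3, judged by its gap to the nearest as a share of the whole range. Chance gives about 1 in 20 for 4 independent values, which these are not. Removing the array set difference leaves equal and opposite values for replicate 1 of each group. For replicate 1 the share thus cannot tell which array of the pair is the odd one. The share was 0.847 for MMP17 (control replicate 1, lowest), 0.937 for TIMP3 (control replicate 1, highest), 0.850 for MMP27 (CDK9 siRNA replicate 2, highest), 0.838 for MMP28 (CDK9 siRNA replicate 4, lowest), 0.941 for ADAMTS4 (control replicate 4, lowest) and 0.879 for ADAMTS20 (CDK9 siRNA replicate 2, lowest). None of these 6 genes passed the test between groups over both array sets.

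The effect of CDK9 siRNA differed between array sets by the limma interaction test for 3 members. The log2 difference in set 1 minus that in set 2 was 0.65 for MMP17, -0.74 for ADAMTS6 and -0.75 for TIMP3. Set 1 is a single pair of arrays, so for other members a gap that did not pass is not shown to be absent. For MMP17 and TIMP3 the flag above rests on that same pair and is not a separate result.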

How the results depend on the processing

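Without a block, limma passed 0 of 18417 genes and thus 0 members and 0 genes of the 3 pathway lists, with 51 genes at an unadjusted p under 0.05; CDK9 kept its log2 difference of -1.82 without passing. Under the replicate block, 813 genes were higher and 875 lower, 1 TIMP gene fell, and 2 ADAM and ADAMTS-like genes rose. It ended the calls of MMP3, MMP13 and TIMP1 among the members, of PLAUR, ADAM17, ADAM23, COL4A2 and COL5A1 in the lists, and of EPCAM, VIM and TMEM123, and no other call named here. In array set 2 alone 2 ADAMTS genes, 2 ADAM and ADAMTS-like genes were lower and 2 substrates higher. With dim genes left out 0 ADAMTS genes fell, because ADAMTS5 was not tested, ADAMTS8 passed (adjusted p = 0.0497), and 7 members differed between array sets, against 3 in the main fit. Among called members that were not dim, the set 1 minus set 2 gap was largest in size for MMP3 (0.93) and ADAMTS3 (-0.57). TIMP2 (-0.46), MMP13 (0.46) and ADAMTS12 (-0.37) came next. After median centring COL4A2 (adjusted p = 0.0799) and COL5A1 (0.0650) did not pass, nor COL4A2 after renewed quantile normalization (0.0796). VIM (0.0744) and TMEM123 (0.0625) did not pass after median centring, nor EPCAM with the mean of its probe sets (0.21, adjusted p = 0.216). Taking the lowest 50% of genes as dim made 72.1% of members dim in place of 41.9%.

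Leaving out 1 array at a time gave, over all genes, 714 to 1753 higher and 806 to 1578 lower; 4 to 8 MMP, 1 to 2 ADAMTS and 1 to 2 TIMP genes lower; 2 to 3 ADAMTS genes higher; 0 to 3 members that differed between array sets; 2 to 5 ADAM and ADAMTS-like genes higher and 1 to 2 lower; and 1 to 2 substrates higher and 6 to 10 lower. The fewest falling MMP genes came without control replicate 4. Leaving out either array of set 1 leaves the other without a partner, so it gives the same differences as set 2 alone. The cause of these changes was not tested. No called member changed sign in any alternative. MMP2, MMP7, MMP12, MMP19, ADAMTS3, ADAMTS5, ADAMTS12 and TIMP2 kept their calls in every alternative but the fit without a block and, for the dim MMP7, MMP12 and ADAMTS5, the one that left them out. Signal over background limits what can be said of the 18 dim members.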
